A study of Homo sapiens with 18 samples.

Results

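The genes described here are those of the cilium and of intraflagellar transport, the traffic of protein complexes along the ciliary axoneme, in human pancreatic progenitors. They were chosen by gene symbol: all *IFT*, *BBS*, *DNAH*, *DNAI*, *CFAP* and *DYNC2* genes with a number or subunit name, the tektins, *CCDC39* and *CCDC40*. The rule found 86 genes in 251 rows, of 21944 genes in 60942 rows in all. Progenitors derived from human embryonic stem cells were dissociated at day 19 of differentiation and reseeded on fibronectin (FN) or on LN411, a laminin isoform of low adhesion, and collected after 3, 6 or 24 h. There were 6 groups of 3 samples and 18 samples in all, with no untreated or non-reseeded group among them. The labels name the HUES4 line as the source, whereas their growth protocol and the study's account of this experiment name NGN3-GFP, a reporter line derived from SA121. What was analysed is the authors' mean normalized count of each gene over all 18 samples, a single value per gene that pools both matrices and all times. The spread between samples, the depth of each library and the difference between LN411 and FN were not analysed here, and no test was made.

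Most vertebrate cell types carry a single primary cilium, a non-motile antenna. It is built and maintained by IFT-B, which travels to the tip with kinesin-2, and by IFT-A, which returns with the dynein-2 motor. The BBSome rides on these trains and carries membrane proteins out of the cilium. Motile cilia use the same transport, and add the parts that make them beat: outer and inner arms of axonemal dynein, tektins and other proteins inside the microtubules, and rulers that space the arms. Duct cells of the pancreas and endocrine cells bear primary cilia. Transcription factors of the RFX family bind a motif, the X-box, near the start of many ciliary genes, and FOXJ1 drives the motile programme.

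The X-box was searched for in RefSeq promoters, each of 300 bases with 250 before and 50 after the start site. The match was GTNNCC with a purine at position 4, a spacer of 0 to 3 bases, then NGNAAC with a purine at position 1 and a pyrimidine at position 3, on both strands. A promoter entry was matched by symbol for 75 of the 86 genes, and 14 of these 75 genes (18.7%) had a match. Of all 27305 genes with an entry, 439 (1.61%) had one, and of the 13198 genes in the authors' table with an entry, 276 (2.09%). Among the matched promoters were 2 of 24 primary-cilium transport genes (8.33%) and 12 of 51 motile-cilium genes (23.5%). These shares are descriptions, since a match shows only that the letters are present. The windows below are those of both transport genes, of *CCDC40* and *CFAP298*, the highest motile genes with a match, of *CFAP58*, the lowest, and of *DNAH1*, where the match reads the same on both strands. The match is in capitals, with 6 bases on each side, 5′ to 3′ on the strand that is named after them.
IFT57: ccggtgGTCGCCTGGTAACcggtcg
IFT122: atgtacGTTGCCAGGGGTAACgcaggt
CCDC40: gacagcGTCGCCTAGCAACgggaaa
CFAP298: gtggatGTTGCCAAGAGCAACagtgaa
DNAH1: gctgatGTTGCCATGGCAACccggat
CFAP58: cggcccGTCGCCTGGCAACggacac
They lie on GRCh38.p14 at chr3:108222409-108222433 (minus strand), chr3:129440206-129440232 (plus), chr17:80036639-80036663 (plus), chr21:32612422-32612448 (plus), chr3:52316208-52316233 (plus) and chr10:104353737-104353761 (minus). The centre of the match lay 3 bases after the start site for *IFT57*, 9 bases after it for *CCDC40*, and 167 bases before it for a further match of *DNAH1*, the most distant. The level of the 12 motile genes with a match ranged from 2.68 for *CFAP58* to 206 for *CCDC40*, in mean normalized counts per kb of exon. Their median was 20.5 per kb, beside 21.4 per kb for the 39 motile genes whose promoters had no match. The 2 transport genes with a match had 76.4 and 742 per kb, beside a median of 223 per kb for the 22 without.

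**Figure D1:**
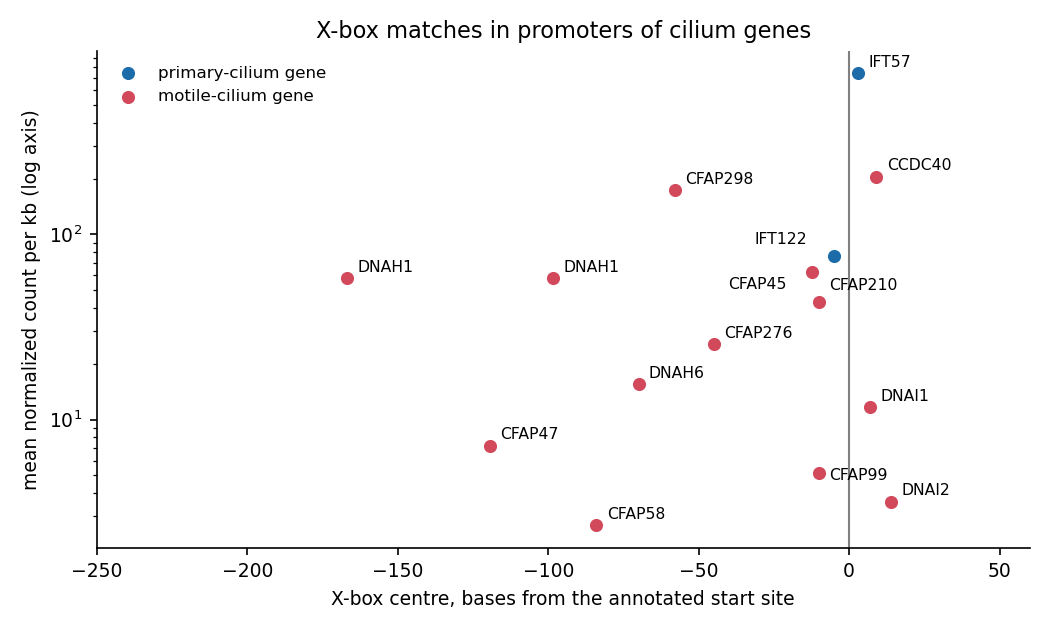
Each point is an X-box match in the promoter of a cilium gene, with the distance of its centre from the RefSeq start site in bases on the horizontal axis and the gene's mean normalized count per kb on a log vertical axis. The matches lie between 167 bases before and 14 bases after the start, and *DNAH1* has 2 of them.

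Levels were compared between genes per length, as the mean normalized count divided by the length of all annotated exons of the gene in kb. Unless another length is named, the order of single genes given below is the order on this scale, and other lengths turn some of it. The 26 primary-cilium transport genes had a median of 218 per kb, with lower and upper quartiles of 120 and 318. The 60 motile-cilium genes had a median of 18.9 per kb, with lower and upper quartiles of 5.28 and 56.8. The ratio of these medians was 11.5, and it lay between 9.20 and 30.2 over the settings tried, highest without any *CFAP* gene. A single transport gene, *BBS1*, lay at or below the motile median, and 4 motile genes lay at or above the transport median. With counts divided only by exon bases that no other gene shares, no transport gene lay at or below the motile median. The median over the 21861 genes of the table with a length was 76.2 per kb, and 24 of the 26 transport genes but 10 of the 60 motile genes reached it. The motile number was 4 without the 7 *CFAP* genes described below and 19 without length scaling. When only genes listed at all 3 times were used, all 26 transport genes stayed, but the median to be reached rose to 130 per kb. The transport number was then 18 and the motile number 6. Against the 15355 protein-coding genes, with a higher median of 194 per kb, 14 transport genes and 5 motile genes reached the median. Among all genes of the table, the median transport gene lay at percentile 65.4 and the median motile gene at percentile 30.2. Together the transport genes held 0.0679% of all mean normalized counts and the motile genes 0.0379%. In a bulk sample, a lower level from fewer cells of a type and from less RNA per cell cannot be told apart.

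**Figure D2:**
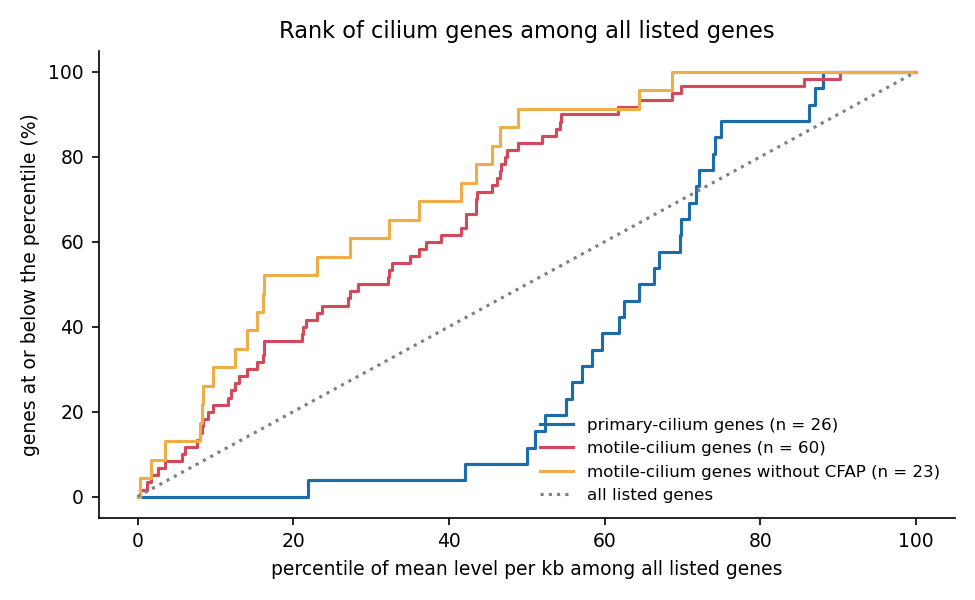
The lines give the share of genes of a class (vertical, in percent) at or below each percentile of mean level per kb among all genes of the table (horizontal); the dotted diagonal is the table as a whole. Of the 26 transport genes 24 lie at or above the median of the table, and of the 60 motile genes 10 do.

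A gene counts as listed at a time when the authors' table holds a row for it at that time. Its level is the same pooled mean in every row, so a missing row does not show that its RNA was absent then. Of the 21944 genes in all, 18672 were listed at all 3 times. All 26 transport genes were listed at 3, 6 and 24 h. Of the motile genes, 57 were listed at 3 h, 57 at 6 h and 59 at 24 h, and 55 at all 3 times. The 5 others were *CFAP299*, *CFAP73*, *CFAP300*, *DNAH3* and *DNAI2*, with mean normalized counts of 5.004, 7.19, 9.02, 9.17 and 10.3. These are among the lowest counts of the class. Over the 18 samples, the mean of *CFAP299* amounts to 90.1 normalized counts in all, and that of *DNAI2* to 186. The GENCODE v44 annotation has 6 further genes whose symbols match the rule, *CFAP126*, *CFAP141*, *CFAP161*, *CFAP206*, *TEKT4* and *TEKT5*, and these were not analysed here. A further 4 genes stand in the table under other symbols and were not taken in by the rule: *IFT25* (as *HSPB11*), *CFAP68* (as *C11orf1*), *CFAP144* (as *FAM183A*) and *CFAP90* (as *C5orf49*), with 360, 126, 14.5 and 147 per kb. A motile median over genes that were all in the table is therefore not the median of the whole family.

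Within IFT-B, the complex that carries tubulin and other cargo towards the tip, the 11 genes ranged from 83.6 to 782 per kb, a 9.37-fold span. *IFT52*, which holds the core together, was the highest at 782 per kb (chromosome 20, 43590937 to 43647299 of GRCh38), with a mean normalized count of 1987. *IFT57*, of the peripheral subcomplex, followed at 742 per kb, with a count of 2694. *IFT20*, the subunit also found at the Golgi, had 313 per kb. Per kb of coding length the order turned, with *IFT27* at 2953, *IFT22* at 2744 and *IFT20* at 2133 above *IFT57* at 2093 and *IFT52* at 1515. The tubulin-binding pair *IFT81* and *IFT74* had 299 and 180 per kb. *IFT46* had 240, *IFT22* 231 and the small GTPase gene *IFT27* 206 per kb. *IFT88*, a subunit whose loss abolishes cilia, had 151 per kb, the lowest of the 7 core genes per kb of exon, while per kb of the longest transcript *IFT74* and *IFT27* were lower, at 247 and 254 against 295. *IFT80* had 117 and *IFT172*, the largest IFT-B subunit, 83.6 per kb, and per kb of the longest transcript they had 205 and 213. In *IFT22*, only 41.0% of exon bases are free of exons of other genes. Its whole count divided by those bases alone came to 564 per kb. Reads that touch several genes are set aside by the counting tool, whose strand setting is not given in the sources used here.

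The IFT-A and dynein-2 genes, which serve the return journey, ranged from 42.3 to 855 per kb. *IFT140* had 357, *IFT43* 280 and *IFT122* 76.4 per kb, while their mean normalized counts were 2906, 1167 and 1801. *IFT122* has 23567 annotated exon bases, the most of the 26 genes, and its level was 371 per kb of the longest transcript and 465 per kb of coding length. On both of these scales *IFT43*, at 661 and 1826, was above *IFT140*, at 555 and 663. The dynein-2 intermediate chain gene *DYNC2I2* was the highest of all transport genes per kb of exon, at 855 (count 2285, percentile 88.1), but the seventh of 26 per kb of coding length, at 1421. The light intermediate chain gene *DYNC2LI1* had 320 and the other intermediate chain gene, *DYNC2I1*, 282 per kb. *DYNC2H1*, the motor's heavy chain with 15012 exon bases, had 42.3 per kb and a count of 635, and it was the lowest of the 4 genes.

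The 6 BBSome genes had a median of 119 per kb. *BBS4* was the highest at 354 per kb (per kb of coding length, *BBS2* at 972 was above *BBS4* at 942), and *BBS7*, *BBS2*, *BBS9* and *BBS5* had 173, 128, 111 and 91.2 per kb. Per kb of the longest transcript *BBS2* and *BBS9*, at 263 and 249, were above *BBS7* at 222. *BBS1* stood far below them at 10.9 per kb, with a mean normalized count of 66.9. It was the only transport gene with a count under 100. Only 31.5% of the exon bases of *BBS1* (chromosome 11, 66510606 to 66533613 of GRCh38) are free of exons of other genes in GENCODE v44. Its whole count divided by those bases alone gave 34.6 per kb, still the lowest of the 6. How far shared reads lower the count of *BBS1* was not tested. The chaperonin-like genes *BBS10* and *BBS12*, needed to assemble the BBSome, had 375 and 139 per kb.

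**Figure D3:**
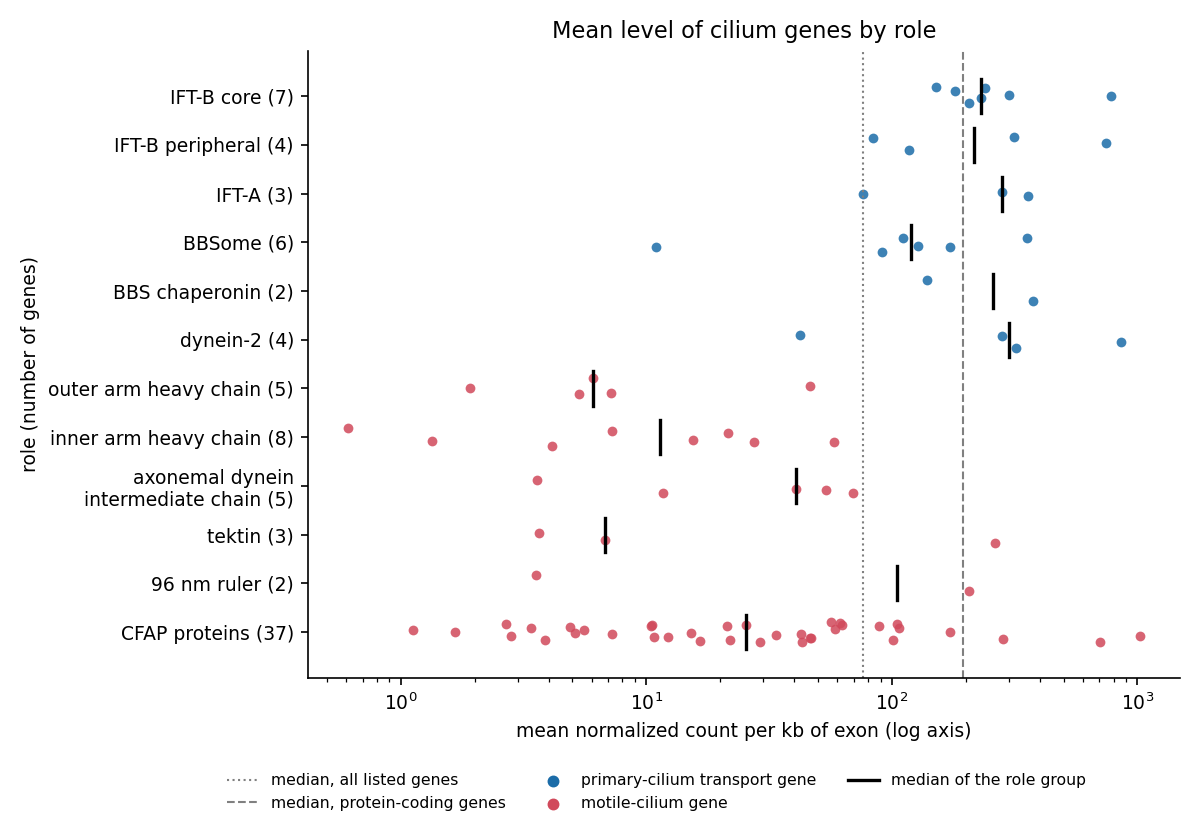
Each point is a gene, placed by its mean normalized count per kb of exon on a log axis and by its role on the vertical axis, with the number of genes in brackets. Black bars are medians of the role groups, and the vertical lines mark the medians of all genes of the table (76.2) and of protein-coding genes (194). The transport groups have medians of 119 to 301 per kb, the axonemal dynein groups of 6.06 to 40.8.

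The axonemal dynein heavy chains, the motors of motile cilia, were low. The 13 genes had a median of 7.21 per kb, none of them reached the median of all genes of the table, and 8 were under 10 per kb. Their exons are long, so that counts are not low in proportion, with a median of 116. Among the outer arm genes, *DNAH11* had 46.4 per kb and a count of 749.8. It was above *DNAH17*, *DNAH5*, *DNAH9* and *DNAH8* at 7.21, 6.06, 5.34 and 1.92 per kb. *DNAH5*, *DNAH9* and *DNAH11* encode outer arm motors of airway cilia, and *DNAH8* and *DNAH17* outer arm motors of sperm. Among the inner arm genes, *DNAH1* was the highest at 58.3 per kb (count 808.5), followed by *DNAH14* at 27.6, *DNAH7* at 21.5 and *DNAH6* at 15.5. *DNAH12* had 7.24, *DNAH2* 4.13, *DNAH10* 1.34 and *DNAH3* 0.611 per kb. *DNAH3* was the lowest of all 86 genes and lay at percentile 0.302 of the table.

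The intermediate chains of these motors were also all below the median of the table, and their range overlapped that of the heavy chains. *DNAI3*, *DNAI4* and *DNAI7* had 69.5, 54.0 and 40.8 per kb, and per kb of coding length *DNAI4* at 142 was above *DNAI3* at 102. *DNAI1* and *DNAI2*, the intermediate chains of the outer arm, had 11.6 and 3.60 per kb, with counts of 42.1 and 10.3. The tektins, filament proteins inside the doublet microtubules, split further. *TEKT2* had 263 per kb, 38.8 times the level of *TEKT3* at 6.78, and *TEKT1* had 3.67. *CCDC39* and *CCDC40* encode coiled-coil proteins that work as a pair, the ruler that sets the 96 nm repeat of the axoneme. *CCDC40* had a mean normalized count of 2048 and 206 per kb (chromosome 17, 80036632 to 80100613), while *CCDC39* had a count of 37.5 and 3.54 per kb (chromosome 3, 180602858 to 180684942). This difference was 58.1-fold per kb of exon and 45.0-fold per kb of coding length. Divided only by exon bases that no other gene shares, the counts differed 36.3-fold. *CCDC40* has an X-box match at its start site, shown above, and *CCDC39* was among the genes whose promoter entry had none.

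The 37 *CFAP* genes, named for cilia and flagella, ran from 1.12 per kb for *CFAP299*, at percentile 1.21 of the table, to 1026 per kb for *CFAP36*, at percentile 90.2. Per kb of coding length, *CFAP74* at 3.52 was below *CFAP299* at 6.67. A set of 7 of them is also known outside motile axonemes. In this set, *CFAP36* had a count of 2775, *CFAP20* 703 per kb, *CFAP97* 283, *CFAP298* 173, *CFAP410* 101 and *CFAP418* 88.7 per kb, and *CFAP300* had 3.41. *CFAP36* was the highest of all 86 genes per kb of exon, at 1680 times the level of *DNAH3*. Per kb of coding length it had 2520 and came after *IFT27*, *CFAP20* and *IFT22*, with *CFAP20* at 2795, and *DNAH3* at 0.740 was again the lowest. The remaining 30 *CFAP* genes had a median of 18.9 per kb, and 2 of them, *CFAP221* at 106 and *CFAP95* at 105 per kb, reached the median of all genes of the table. *CFAP45*, *CFAP53*, *CFAP91* and *CFAP43* had 62.7, 61.6, 58.6 and 56.3 per kb. *CFAP70*, *CFAP69*, *CFAP210* and *CFAP46* had 46.9, 46.6, 42.9 and 42.6 per kb, and *CFAP44*, whose loss affects the sperm flagellum, had 33.7. *CFAP119* had 29.2 per kb, but only 27.7% of its exon bases are free of exons of other genes. Its whole count divided by those bases alone gave 105 per kb. *CFAP410* likewise had 39.6% of such bases, and the same division gave 255 per kb. *CFAP276*, *CFAP157*, *CFAP77* and *CFAP52* had 25.5, 21.96, 21.4 and 16.5 per kb. At the other end, *CFAP74*, *CFAP58* and *CFAP100* had 1.66, 2.68 and 2.82 per kb. Without the 7 genes, the motile median was 15.2 per kb and the ratio of the class medians 14.4, and without any *CFAP* gene they were 7.24 per kb and 30.2.

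**Figure D4:**
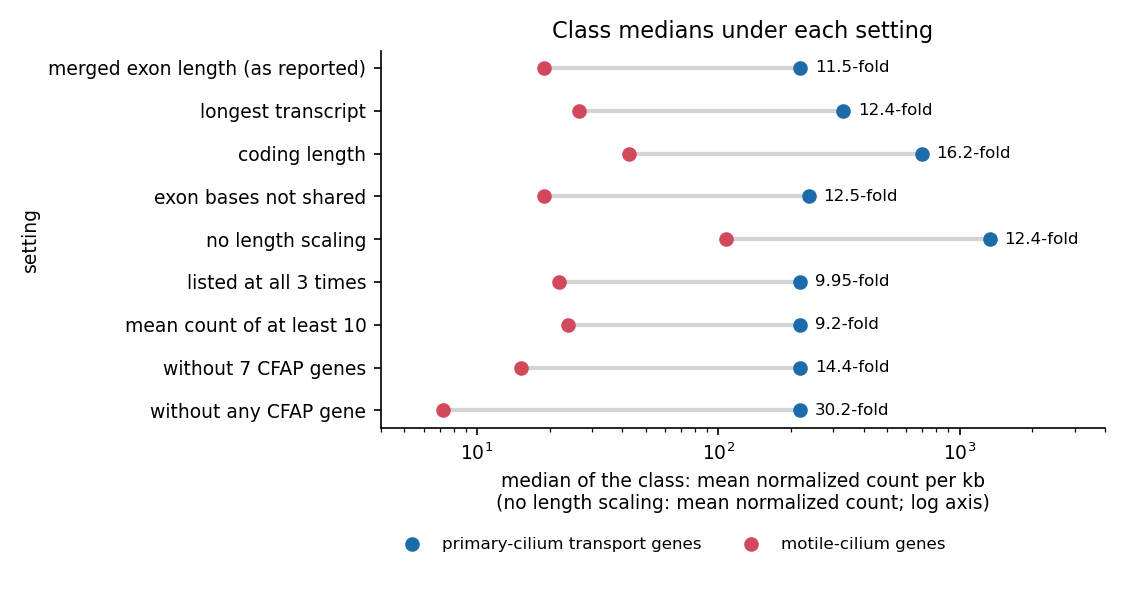
Each row is a way of scaling or choosing the genes, and the points are the medians of transport and motile genes on a log axis, in mean normalized counts per kb (without length scaling, in mean normalized counts), with their ratio beside them. The ratio lies between 9.20 and 30.2, and between 11.5 and 16.2 for the settings that change only the length.

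Other genes of the pathway, from lists fixed by symbol, are given for comparison on the same scale. For subunits of IFT, dynein-2 and BBS complexes under other names, 18 symbols were searched and 14 were found. Those not found, *IFT56*, *TCTEX1D2*, *WDR60* and *WDR34*, are second names of genes found here or already among the transport genes. The genes found had a median of 131 per kb, and 13 of them reached the median of all genes of the table. They ran from 56.8 per kb for *TTC21B*, an IFT-A subunit, to 376 for *TRAF3IP1*, an IFT-B subunit. Of the kinesin-2 genes, *KIF3B* had 1943, *KIF3A* 351, *KIFAP3* 228 and *KIF17* 12.0 per kb. The 14 transition zone genes, which form the gate at the ciliary base, had a median of 100.2 per kb, from 20.7 for *CC2D2A* to 1040 for *TCTN3*. On the motile side, 15 symbols of dynein arm assembly and docking were searched, with *DYX1C1* a second name of *DNAAF4*, and 7 were found. The docking genes *CCDC114*, *CCDC151*, *ARMC4* and *TTC25* were not found under these symbols. The median of 86.3 per kb is therefore that of assembly genes and leaves out much of the list. The 7 genes found ran from 19.3 for *DNAAF4* to 564 for *DNAAF2*. The 14 genes of the radial spokes, the nexin link and the central pair had a median of 38.5 per kb, from 1.27 for *RSPH10B* to 275 for *RSPH3*. *RSPH10B* has a near-identical copy that can share its reads, which leaves its value uncertain.

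The label of the cells was set against marker genes. All 8 pancreatic progenitor markers were above the median of all genes of the table, with *PDX1* at 4969, *SOX9* at 5259, *NKX6-1* at 773 and *GP2* at 33603 per kb. The endothelial markers *PECAM1* and *CDH5* had 9.69 and 0.851 per kb. The mesenchymal markers *COL1A1*, *COL3A1* and *PDGFRB* had 454, 47.4 and 15.9 per kb. The hepatic markers *AFP* and *ALB* had 8334 and 187 per kb, so that *AFP* was of the order of the progenitor markers. The part of other cell types in the levels of cilium genes was not tested, and the markers of pluripotent and neural cells were not analysed here.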

How the data were processed

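The authors aligned reads of poly(A) RNA libraries with STAR (2.7.2d per the submitters' processing notes) to hg38 and GENCODE v32, took gene counts from the same tool, and normalized these in DESeq2 (1.34.0). The deposited table holds 1 signal value per gene used here: the authors' mean normalized count, the average of size-factor scaled counts over 18 samples, not scaled for gene length. It was the same at all 3 times (largest relative gap 4.89e-07). The table's other columns are the authors' comparisons of LN411 with FN (log2 fold changes, standard errors, Wald statistics, p-values and adjusted p-values). They were not used, and values per sample were not analysed here. No test, error or interval is therefore given, and the depth of single libraries is unknown. The mean normalized counts sum to 53217583 over all genes.

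Each mean was divided by the merged exon length of the gene in GENCODE v44 on GRCh38, matched by Ensembl identifier for all 86 genes and 99.6% of all genes. The authors' build is the same and their annotation older. For exon bases that no other gene shares, the whole count was divided by those bases alone, and reads were not recounted on them. Transport genes were *IFT*, *BBS* and *DYNC2*, and all others were motile-cilium genes. Genes named are the highest and lowest of each role group and the 8 highest of each class, with others by group. The members and lists were chosen with earlier results of these data known. Promoters were from RefSeq (GRCh38.p14). Alternatives were 3 other lengths, no length scaling, 2 filters and 2 make-ups of the motile class, to which protein-coding genes as the reference, and the number of genes listed at all 3 times, were added after seeing the data, as were the levels of single genes under the other lengths. Length, motif and class steps were tested on simulated data. Python 3.11.15, pandas 2.3.3, numpy 2.4.6 and matplotlib 3.10.9 were used.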

Additional observations from a re-analysis of the deposited data

How the results depend on the processing

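The transport median was above the motile median under every setting tried, with ratios from 9.20 to 30.2. The highest ratio, 30.2, came without any *CFAP* gene, where the motile median was 7.24 per kb and 2 motile genes reached the median of all genes of the table. Per kb of the longest transcript, the transport median was 330 per kb. Per kb of coding length, the medians were 696 and 42.8 and 13 transport and 4 motile genes reached the median, a setting that changes the length of every gene and also leaves only coding genes in the reference. With protein-coding genes as the reference, an alternative chosen after seeing the data, 14 and 5 genes did. Without length scaling, the medians were 1336 and 107.8 mean normalized counts, and 19 motile genes reached the median. The motile number was 6 with only genes listed at all 3 times, which also left 81 of the 86 genes, 6 with counts of at least 10 (transport genes, 18 and 19), and 4 without the 7 *CFAP* genes. With these 2 filters the median to be reached was higher, at 130 and 119 per kb against 76.2, and all 26 transport genes stayed. Levels of single genes relative to protein-coding genes were also compared after seeing the data. They moved by more than 1.5 times for 58 of the 86 genes per coding length and 9 per longest transcript. With counts divided only by exon bases that no other gene shares, 5 genes moved. Leaving out single samples, and the error of each value, could not be had from means over all samples. No paired analysis was possible because the values pool all samples.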

Other observations

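The regulators of multiciliated cells, which carry many motile cilia, were not at a common level. *FOXJ1* had 972 per kb, at percentile 89.6 of the table and above 59 of the 60 motile-cilium genes. *GMNC*, *TP73*, *MYB* and *CCNO* had 3.34, 13.3, 14.2 and 14.9 per kb, all below the motile median of 18.9 per kb. *MCIDAS* was not analysed here.

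Some cilium genes start close to another protein-coding gene on the opposite strand. Only pairs read away from each other were counted. Such a start site within 1000 bases was found for 10 of the 86 genes (11.6%), against 9.98% of the 15355 protein-coding genes of the table. The closest pair was *CFAP52* and *STX8*, a gene of vesicle fusion, with start sites 36 bases apart and levels of 16.5 and 316 per kb. *DNAI4* and *MIER1* lay 39 bases apart, with 54.0 and 347 per kb, and *IFT20* and *TNFAIP1* 113 bases apart, with 313 and 1389 per kb. The cilium gene was the higher one for *IFT140*, at 357 beside 191 per kb for *CRAMP1*, and for *IFT122*, at 76.4 beside 26.6 for *EFCAB12*. In all other pairs the partner was higher.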
